A study of Mus musculus with 143 samples.

Results

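The genes of the interferon response were followed across single microglia, macrophages that live in brain tissue, taken from mouse cerebellum on postnatal day 7. The set was given as a list of 35 gene symbols, all of which are rows of the count table, out of 23337 gene rows, of which 12801 had a read in at least 1 cell. It was split by role into 10 genes of reception and signalling (4 receptor chains, 2 kinases and 4 transcription factors) and 25 genes that interferon induces. Of the 35 members, 34 had a read in at least 1 of the 143 cells.

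The animals were wild type male C57BL/6N pups whose cerebella were pooled, and every cell passed a gate for low CD45 with CD11b, Gpnmb and Clec7a at the surface. The labels name no treatment, and there is 1 group. Cells were sorted into wells, 95 on plate 1 and 48 on plate 2, and sequenced with Smart-seq2 after wells with too little cDNA had been dropped, which reads whole transcripts and carries no molecular identifiers. The labels do not tie a cell to an animal, so the 143 cells are 1 sample, no test between cells was run, and intervals cover counting error only. The age label was used, although the name of the pooled library in the labels contains the word adult.

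Total counts per cell ran from 271190 to 1226521 with a median of 760690, and the number of genes detected from 1552 to 4955 with a median of 3255. The microglial markers Csf1r, Trem2, C1qa and Fcrls were read in all 143 cells, and every cell had at least 6 of 8 such markers, although Tmem119 was read in 25.9% of cells. Of 34 markers of other cell types that are not members, 15 had no read in any cell, among them Cd163, Lyve1, Ly6c2, Cd3e and Cd79a, while Siglech, Tcf4 and Mrc1, which microglia can also carry, were read in 69.2%, 79.7% and 55.9% of cells. Cd79b (B cells) was read in 37.1%, Ms4a7 (border-associated macrophages) in 21.0% and Fn1 (monocytes) in 15.4%. Mbp (oligodendrocytes) and Slc1a3 (astrocytes) were read in 13.3% each and Flt1 (endothelial cells) in 10.5%. The remaining markers with a read were each found in under 10% of cells.

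Type I interferons act through a receptor of the chains Ifnar1 and Ifnar2, and interferon gamma through Ifngr1 and Ifngr2. The kinases Jak1 and Tyk2 sit on the type I receptor; when it is engaged they activate Stat2, which acts in a complex with Irf9 that binds a DNA element of repeated GAAA blocks, the interferon-stimulated response element, in front of antiviral genes. Interferon gamma instead acts mainly through a TTCNNNGAA element. In microglia a state rich in induced genes is known from infection, ageing and injury, and small numbers of such cells are described in the healthy brain.

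The promoters show how the response element sits in front of members that were read in very different shares of these cells. Each stretch gives the 160 bases before the RefSeq start of transcription (GRCm38.p6, the build called mm10), 5′ to 3′ on the strand of the gene, and the capitals mark every match to GAAANNGAAA on either strand, where overlapping matches merge. Ifit1 and Ifit3 are shown because a single cell held all of their reads. Isg15 and Oas1a are shown as induced genes read in 5 and 26 cells, and Bst2 as an induced gene read in most cells. Ifngr1 is shown as a receptor gene with no match.
Ifit1, chr19:34640729-34640888, plus strand: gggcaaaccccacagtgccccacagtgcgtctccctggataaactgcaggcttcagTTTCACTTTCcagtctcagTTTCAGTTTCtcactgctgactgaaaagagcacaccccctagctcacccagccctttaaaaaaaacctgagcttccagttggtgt
Ifit3, chr19:34583369-34583528, plus strand: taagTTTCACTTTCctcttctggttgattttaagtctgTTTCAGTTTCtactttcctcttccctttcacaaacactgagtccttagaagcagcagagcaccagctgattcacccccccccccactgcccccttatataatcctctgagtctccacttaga
Isg15, chr4:156200819-156200978, minus strand: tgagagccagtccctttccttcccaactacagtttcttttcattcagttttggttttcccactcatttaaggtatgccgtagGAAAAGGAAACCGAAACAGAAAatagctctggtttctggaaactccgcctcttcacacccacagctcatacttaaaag
Oas1a, chr5:120907526-120907685, minus strand: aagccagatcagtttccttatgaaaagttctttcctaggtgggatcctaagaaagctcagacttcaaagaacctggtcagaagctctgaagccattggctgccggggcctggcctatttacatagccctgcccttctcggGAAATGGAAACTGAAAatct
Bst2, chr8:71537473-71537632, minus strand: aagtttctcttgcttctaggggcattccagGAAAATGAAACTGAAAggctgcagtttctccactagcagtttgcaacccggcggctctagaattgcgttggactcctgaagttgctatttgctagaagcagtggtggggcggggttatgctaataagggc
Ifngr1, chr10:19591789-19591948, plus strand: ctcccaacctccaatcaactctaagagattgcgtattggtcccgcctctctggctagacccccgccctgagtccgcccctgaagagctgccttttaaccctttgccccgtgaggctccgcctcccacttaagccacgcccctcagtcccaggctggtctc

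In the whole promoter window of 300 bases, RefSeq sequences were matched for 28 of the 35 members. GAAANNGAAA was found on either strand in 11 of 18 matched induced genes and in 1 of 10 matched signalling genes, Stat2, against 3.44% of 32851 promoter windows of mouse genes. The longer form GAAANNGAAACT, each match of which contains a match to the shorter one, was found in 7 of the 18 induced genes and 0 of the 10 signalling genes, against 0.271% of windows. TTCNNNGAA was found in 6 of the 18 and 3 of the 10, against 8.30% of windows. A match is a stretch of letters, and binding was not measured. Bst2 and Ifit1 each hold matches to the longer form, yet Bst2 was read in 69.2% of cells and Ifit1 in 0.699%.

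All 4 receptor genes were read in most cells, while the induced genes ranged from no read to 90.2% of cells. The median share of cells in which a gene had a read was 42.0% over the 10 signalling genes and 11.2% over the 25 induced genes, where the median over all 12801 genes with a read was 16.1%. The signalling median was 76.6% with the 4 transcription factors, which interferon also induces, moved to the induced list. A share of 50% or more was reached by 5 signalling genes and 2 induced genes, against 17.2% of all genes with a read. At the low end, 2 of the 10 signalling genes and 11 of the 24 induced genes with a read were found in under 10% of cells, a range that holds 39.2% of all genes with a read. The count of induced genes at the low end thus lies near that over all genes. Summed over members, the signalling genes took 1472 and the induced genes 584 counts per 1000000 gene counts (CPM, pooled over all cells). The sums were not divided by transcript length. Joint exon lengths of the signalling genes ran from 2847 (Ifngr1) to 7227 bases (Jak1). Those of the induced genes ran from 463 (Ifi27l2a) to 9306 bases (Parp14). As whole transcripts are read, the sums do not rank the lists by number of transcripts. Levels per length are given below.

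**Figure D1:**
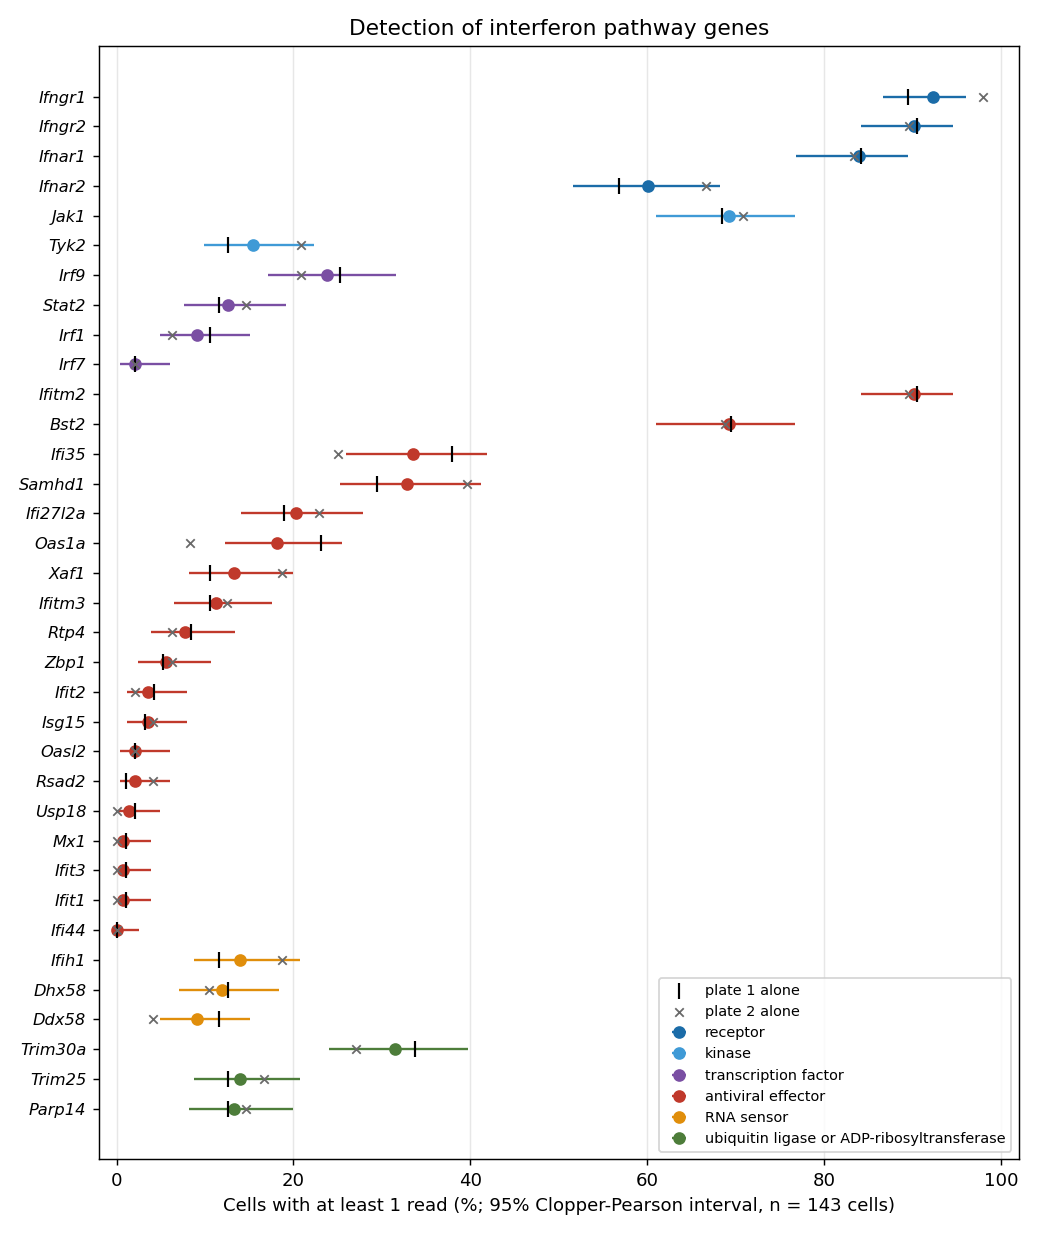
Share of the 143 cells with at least 1 read (horizontal axis, percent) for each of the 35 genes, ordered within roles given by colour; bars are 95% Clopper-Pearson intervals, black ticks plate 1 alone and gray crosses plate 2 alone. The receptor genes lie between 60.1% and 92.3%, while 5 of the 19 antiviral effectors reach 20%, led by Ifitm2 and Bst2.

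The chains of the interferon gamma receptor were read in more cells than any other signalling member. Ifngr1 was read in 92.3% of cells (95% interval 86.7 to 96.1), with levels in cells with a read from 28.7 to 3619 CPM around a median of 551 CPM. Ifngr2 was read in 90.2% (84.1 to 94.5) at 2.06 to 1044 CPM around 261 CPM. The highest cell held 4.07% of the summed level of Ifngr1 and 2.61% of that of Ifngr2. Both chains were read together in 82.5% of cells (75.3 to 88.4).

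The type I receptor chains were read in fewer cells. Ifnar1 was read in 120 cells (83.9%, 76.9 to 89.5) at a median of 179 CPM among them and a highest value of 1007 CPM. Its partner Ifnar2 was read in 86 cells (60.1%, 51.6 to 68.2) at a median of 146 CPM and a highest value of 766 CPM. Both chains were read in 71 cells (49.7%, 41.2 to 58.1), all 4 receptor chains in 60 cells (42.0%), and no cell lacked a read of all 4, which allows a share of up to 2.098% (3 counts of 143), where the exact interval reaches 2.55%. Ifnar2, Ifnar1 and Ifngr2 lie in this order along chromosome 16, from 91372783 to 91565623, each on the plus strand.

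The kinases parted. Jak1, which serves both receptors, was read in 99 cells (69.2%, 60.97 to 76.7) at a median of 196 CPM among them. Tyk2, which binds Ifnar1, was read in 22 cells (15.4%, 9.90 to 22.4) at a median of 170 CPM, with 20.8% of cells on plate 2 and 12.6% on plate 1. Cells with Tyk2 had a median of 116.5 reads of it. The medians of the 2 kinases lay close, but each leaves out the cells without a read. Pooled over all cells, Jak1 was at 168.6 and Tyk2 at 28.8 CPM. Jak1 and both type I chains occurred with Tyk2 in 8 cells (5.59%).

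The transcription factors were read in a minority of cells. Irf9 was found in 34 cells (23.8%, 17.1 to 31.6), Stat2 in 18 (12.6%, 7.63 to 19.2) and both in 5. Irf1, a factor induced strongly by interferon gamma, was read in 13 cells (9.09%, 4.93 to 15.0), from 5.79 CPM to 432 CPM in the cell of well F6 on plate 1. Irf7, the factor that amplifies type I interferon production, had reads in 3 cells only, at 175, 170 and 154 CPM in wells B12 and F6 of plate 1 and D4 of plate 2. Some exons of Irf7 and Phrf1 share 45 bases on opposite strands, and Phrf1 was read in 45 cells, more often than Irf7. Irf9 shares exon bases with Rnf31 on the same strand, which was read in 10 cells. The use of strand in counting is unknown here.

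Among the induced genes, 2 genes of membrane-bound antiviral proteins were read in most cells. Ifitm2, of a family that blocks fusion of virus and cell membrane, was read in 90.2% of cells (84.1 to 94.5), at 1.31 to 789 CPM around a median of 173 CPM in those cells. Its relative Ifitm3 was read in 16 cells (11.2%, 6.53 to 17.5) at a median of 73.7 CPM and a highest value of 205 CPM. Of the 16 cells with Ifitm3, 15 also had Ifitm2, which was read in 90.2% of all cells. The 2 genes are related in sequence and lie on chromosome 7, minus strand, Ifitm2 at 140954837 to 140955987 and Ifitm3 at 141009586 to 141010770; how reads matching both were counted is unknown here. Ifitm6 was read in 2 cells, and Ifitm1 and Ifitm7 in 0.

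Bst2, or tetherin, which holds budding virus at the cell surface, was read in 99 cells (69.2%, 60.97 to 76.7) at 1.35 to 476 CPM around a median of 108.4 CPM. Of these cells 92 also had Ifitm2, which is 92.9% of the Bst2 cells and 71.3% of the Ifitm2 cells. These shares lie near those over all cells, 90.2% for Ifitm2 and 69.2% for Bst2. Neither gene was read in 7 cells. Without Bst2 and Ifitm2, the other 23 induced genes gave a median of 2 genes per cell, and 11 cells had none of them.

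Levels per length of transcript put these genes in a common order. Divided by the joint exon length in GENCODE vM21, pooled levels were highest for Ifitm2 at 271 CPM per kilobase, Ifngr1 at 219 and Bst2 at 101.7, followed by Ifngr2 at 75.8. Ifnar1 at 33.8, Ifi27l2a at 32.8, Ifi35 at 32.3 and Ifnar2 at 29.1 CPM per kilobase lie close together, and their order has no error to set it against in a single pool. Tyk2 was at 4.19 and Stat2 at 2.74, and the lowest member with a read was Mx1 at 0.0512 CPM per kilobase. The joint length counts exons of all isoforms, so it understates genes expressed as a short isoform.

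A middle group of induced genes was read in between 11.2% and 33.6% of cells. Ifi35, an interferon-induced leucine zipper protein, was read in 48 cells (33.6%, 25.9 to 41.9) at a median of 143 CPM among them and a highest value of 759 CPM. Samhd1, which destroys nucleotides needed for reverse transcription, was read in 47 cells (32.9%, 25.2 to 41.2) at 2.69 to 661 CPM around 121.8 CPM. Both were read in 20 cells, which is 42.6% of the Samhd1 cells and 41.7% of the Ifi35 cells. Trim30a, a ubiquitin ligase, was read in 45 cells (31.5%) at a median of 79.2 CPM, and its relative Trim30d in 28. Ifi27l2a, a small hydrophobic protein strongly induced by interferon, was read in 29 cells (20.3%), at 2.63 to 377 CPM around 47.2 CPM.

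Oas1a, which makes the oligoadenylates that switch on RNase L, was read in 26 cells (18.2%, 12.2 to 25.5) at 1.22 to 432 CPM around 79.05 CPM. It was found in 23.2% of cells on plate 1 and 8.33% on plate 2. Xaf1, an antagonist of the apoptosis inhibitor XIAP, was read in 19 cells (13.3%) at 8.42 to 222 CPM around 59.9 CPM. The 2 genes were read together in 6 cells, which is 23.1% of the Oas1a cells and 31.6% of the Xaf1 cells. Over all cells, the shares were 13.3% for Xaf1 and 18.2% for Oas1a. Trim25, the ubiquitin ligase of the RIG-I pathway, was read in 20 cells and Parp14, an ADP-ribosyltransferase, in 19 (13.3%).

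The cytosolic RNA sensors were each read in a minority of cells. Ifih1 (MDA5) was read in 20 cells (8.76 to 20.8% of cells), Dhx58 (LGP2) in 17 (11.9%, 7.08 to 18.4) and Ddx58 (RIG-I) in 13 (9.09%, 4.93 to 15.0). No cell had all 3, and 96 cells (67.1%) had none. Levels in cells with a read were 1.17 to 277 CPM for Ifih1 and 1.73 to 224 CPM for Ddx58.

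A core of 12 genes that are low without interferon in textbook accounts (Ifit1, Ifit2, Ifit3, Isg15, Rsad2, Usp18, Oasl2, Oas1a, Mx1, Ifi44, Rtp4 and Xaf1) was also followed. Of its 11 members with a read, 9 were found in under 10% of cells, against the 39.2% of all genes given above. The core was chosen for low levels without interferon, with earlier results of these data known. Its low shares may thus follow from that choice. Ifi44 had no read in 143 cells, which allows a share of up to 2.098% (3 counts), where the exact interval reaches 2.55%. Mx1, a GTPase against influenza virus whose gene is disrupted in most laboratory strains, was read in 1 cell, with 20 reads. Usp18, which removes Isg15 from proteins and damps the type I receptor, was read in 2 cells, at 242 CPM in well E2 and 147 CPM in well C6 of plate 1. Rsad2, or viperin, was read in 3 cells, at 487 CPM in well D6 and 171 CPM in well C5 of plate 2 and at 79.3 CPM in well E2 of plate 1. The 2 higher cells were on plate 2.

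Oasl2 was read in 3 cells, at 228 CPM in well C5 of plate 2 and at 41.5 and 14.1 CPM in wells B12 and E2 of plate 1; 2 of these cells are also Rsad2 cells. Isg15, the ubiquitin-like modifier, was read in 5 cells at 66.8, 19.8, 11.9, 11.6 and 4.17 CPM, from 51 reads in the highest cell to 3 in each of the lowest 2, so 4 of the 5 values lay under 20 CPM. Ifit2, an RNA-binding protein, was read in 5 cells at 266, 233, 110.7, 106.9 and 61.4 CPM. Zbp1, a sensor of Z-form nucleic acid, was read in 8 cells (5.59%) at 1.38 to 170 CPM, and Rtp4 in 11 (7.69%) at 60.9 to 394 CPM.

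**Figure D2:**
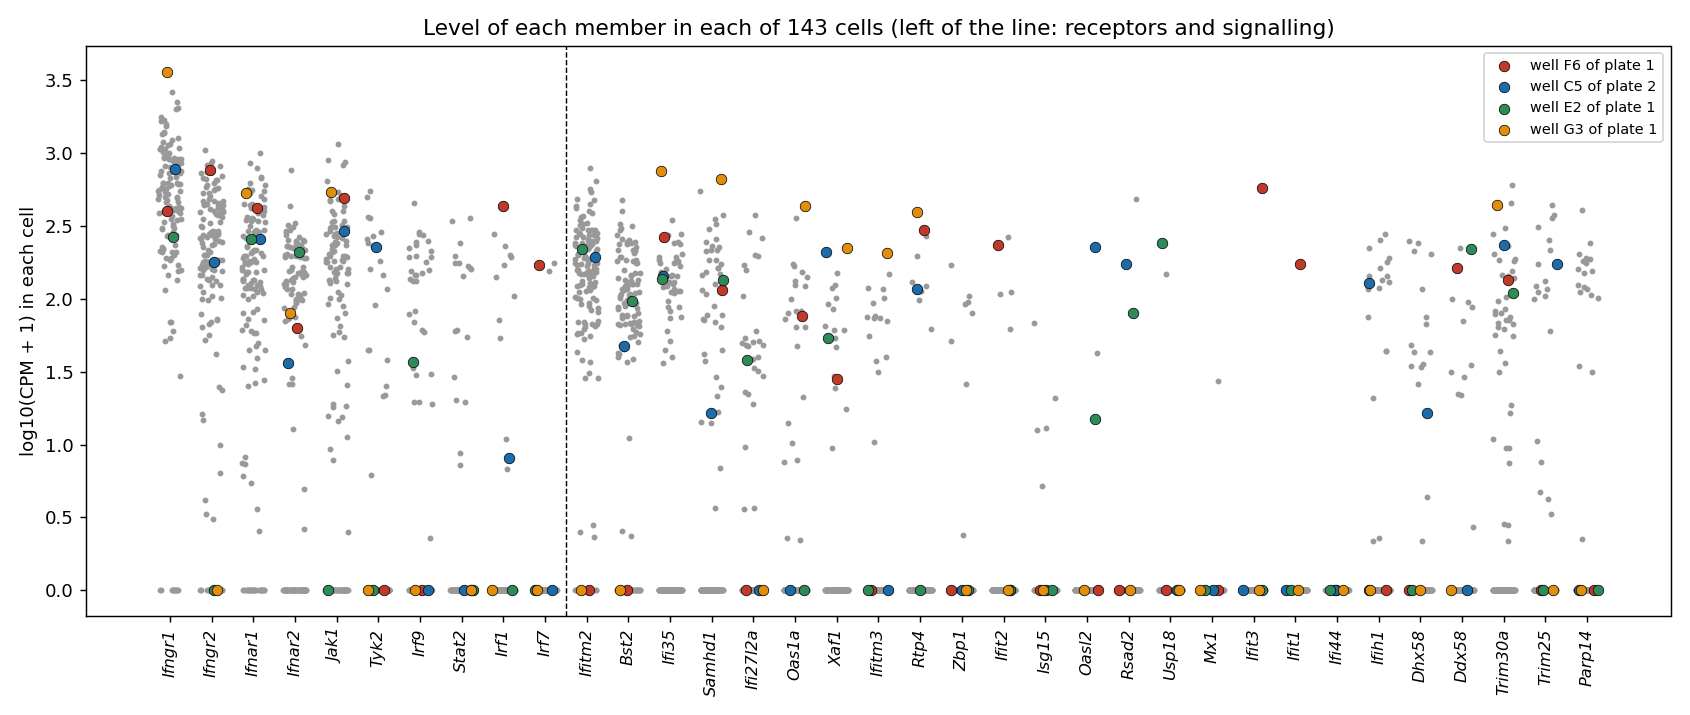
Level of every member in each of the 143 cells, as log10(CPM + 1) on the vertical axis, with receptors and signalling genes left of the dashed line; gray points are cells and coloured points 4 wells that the text describes. Ifit1 and Ifit3 have a single point above 0, the cell of well F6 on plate 1, while the receptor genes form dense columns.

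Values above 0 mostly rested on many reads. Of 5005 pairs of a member and a cell, 1243 (24.8%) had a read, and 43 of these (3.46%) had fewer than 5 reads. Over the induced genes alone the median was 84 reads. Without molecular identifiers, the number of molecules behind these reads is unknown. A cell without a read of a gene may still hold its RNA. The highest cell held at least 50% of the summed level of 7 of the 24 induced genes with a read. These were Ifit1, Ifit3, Mx1, Oasl2, Rsad2, Usp18 and Isg15. The same held for 0 of 10 signalling genes and for 20.1% of all genes with a read. Ifit1, Ifit3 and Mx1 were read in 1 cell and Usp18 in 2, for which a share of at least 50% is fixed by arithmetic.

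The number of induced genes read per cell was small and narrow, with a short tail. Of the 25 induced genes, cells had a median of 4, quartiles of 3 and 5 and a range of 1 to 12, and both plates had a median of 4. At least 8 were read in 5 cells (3.50%, 1.14 to 7.97), 3 on plate 1 and 2 on plate 2; this limit was chosen after the values were seen. The count was 4 with at least 2 or 5 reads, 3 without Ifitm2, Ifitm3 and Bst2 and 9 with the transcription factors added. Of the 10 signalling genes, cells had a median of 4 and a range of 2 to 8. The core of 12 genes had no read in 91 cells, 1 gene in 37, 2 genes in 10 and at least 3 in 5 cells (3.50%). At least 1 core gene was read in 36.4% of cells, 38.9% on plate 1 and 31.2% on plate 2.

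**Figure D3:**
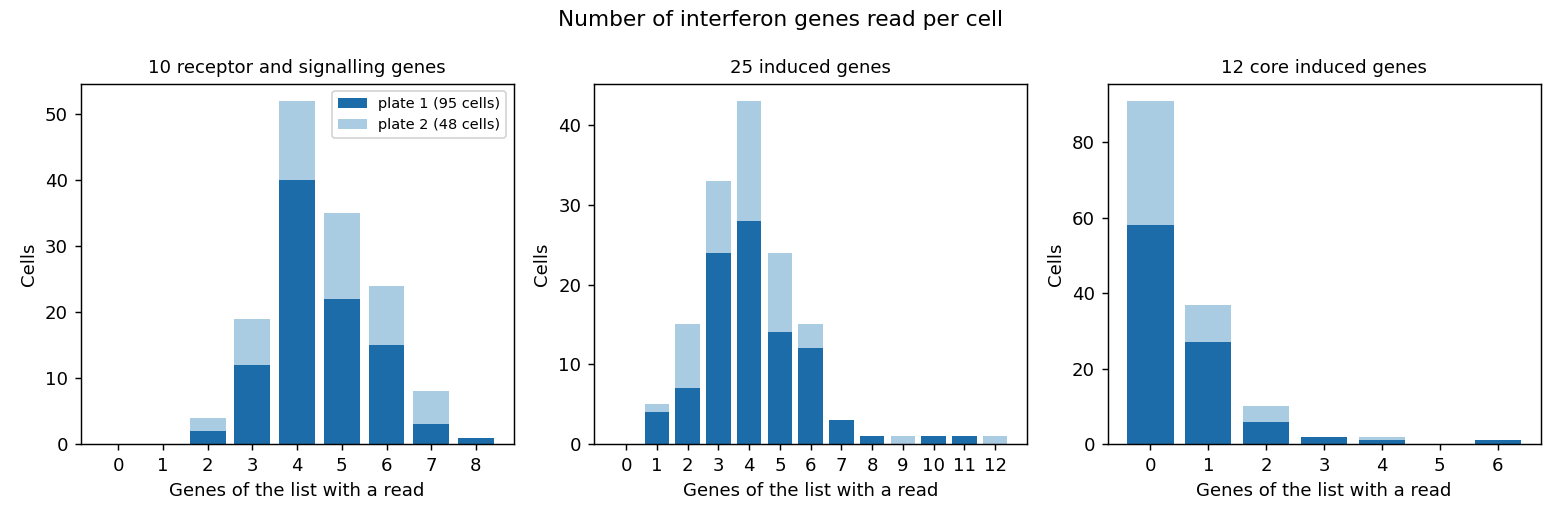
Number of cells (vertical axis) by number of genes with a read (horizontal axis) for the signalling, induced and core lists, with plate 1 in dark and plate 2 in light blue. The induced list peaks at 4 genes and thins out to single cells at 8, 9, 10, 11 and 12 genes, and the core list has 91 cells at 0.

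The cell in well F6 of plate 1 held the most core genes, 6 of 12, and 10 induced genes. It gave all reads of Ifit1 (146 reads, 171 CPM) and of Ifit3 (493 reads, 578 CPM), had the highest Irf1 (432 CPM), and was second highest for Ifit2 (233 CPM), Irf7 (170 CPM) and Rtp4 (296 CPM). Ifit1 (34640871 to 34650009) and Ifit3 (34583531 to 34588731) both lie on chromosome 19, plus strand. Related copies had few reads: the older symbol I830012O16Rik, which RefSeq names Ifit3b, had 7 reads in all, in the same cell, and 2010002M12Rik (Ifit1bl2) had 14 reads in 1 other cell. The cell lacked reads of Bst2, Ifitm2, Isg15, Usp18 and Rsad2.

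The cell in well C5 of plate 2 had the most induced genes, 12 of 25, with 4 core genes. It was highest for Oasl2 (228 CPM) and second highest for Rsad2 (171 CPM) and Xaf1 (208 CPM). It had reads of both type I chains, Jak1 and Tyk2, but Ifnar2 at 35.4 CPM was low and Ifit1, Ifit2, Ifit3 and Irf7 had no read. The cell in well E2 of plate 1 had 11 induced and 4 core genes, with the highest Usp18 (242 CPM) and the second highest Ddx58 (219 CPM), beside Rsad2 at 79.3 CPM. C5 and E2 shared 8 induced genes, among them the core genes Rsad2, Oasl2 and Xaf1, while F6 shared 5 induced genes with each. The 8 include Bst2 and Ifitm2, which were read in 69.2% and 90.2% of all cells and had no read in F6. Xaf1, Ifi35, Samhd1 and Trim30a were read in all 3 cells. Wells D12 of plate 2 and D8 of plate 1 followed with 9 and 8 induced genes and 2 and 1 core genes. Of the 8 in D8, Dhx58 had 1 read.

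Depth and cell identity were set beside these cells. Wells F6, E2 and C5 had 3552, 3494 and 3325 genes detected, ranks 43, 50 and 67 of 143, and 852517, 781380 and 706652 gene counts. They had reads of 8, 7 and 7 of the 8 microglial markers and of 4, 3 and 4 of the 34 markers of other cell types, where all cells had a median of 3 and a range of 1 to 7. The markers of other cell types read in F6 were Gfap, Mrc1, Ms4a7 and Siglech. In E2 they were Gfap, Siglech and Tcf4, and in C5 Mbp, Rbfox3, Siglech and Tcf4. Gfap (astrocytes), Mbp (oligodendrocytes) and Rbfox3 (neurons) were read in 12, 19 and 8 of the 143 cells. What these reads stem from was not tested. F6 had the highest value of all cells for Ms4a7 (616 CPM), a marker of macrophages at the borders of the brain, and had reads of Mrc1, while Cd163, Lyve1 and Cd209f were at 0 in every cell; the part of such cells in its values was not tested. Of the genes of the gate, F6 had reads of 2 of 4, E2 of 3 and C5 of 4.

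The cell in well G3 of plate 1 stood apart in another way. It had the highest value of 7 members (Ifngr1, Ifitm3, Oas1a, Samhd1, Ifi35, Xaf1 and Rtp4) and the highest summed level of both lists, 4766 CPM for signalling and 3113 CPM for induced genes, against medians of 1321 and 513 CPM. It also had the second fewest genes detected, 1914, and spike-ins took 8.19% of its counts, where the median cell had 3.86%. It was highest for Siglech too, at 2885 CPM. The part that few genes and a high spike-in share have in its rank was not tested. Without it, the highest Ifi35 value was 347 in place of 759 CPM, and Ifngr1 2623 in place of 3619 CPM, and 4 in place of 5 cells had at least 3 core genes. Well D6 of plate 2, highest for Rsad2 and Isg15, had 1994 genes detected and spike-ins at 7.46%.

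A further list of 43 induced genes, not used to choose these cells, was counted in the same way. Of these, 34 had a read in at least 1 cell, and cells had a median of 6 genes with quartiles of 4 and 7. Well E2 of plate 1 had 13, the most of any cell, F6 of plate 1 had 12 and C5 of plate 2 had 11; at least 11 were read in 5 cells, the other two being G3 and B5 of plate 1 with 12 each, of which B5 had 3 of the 25 members. In F6, 4 of the 43 genes had their highest value, namely Eif2ak2, the kinase PKR, at 565 CPM, Parp12 at 581 CPM, Slfn8 at 347 CPM and Oasl1 at 79.8 CPM, the only cell with a read of it. In E2, Slfn5 at 111.3 CPM and Mnda at 37.1 CPM were highest. Other cells reached such counts: G3 was highest for 5 of the 43 (Oas2, Irgm1, Igtp, Slfn2 and Lgals3bp), and A6 of plate 1, with 3 of the 25 induced members, for 4 (Oas1g, Dtx3l, Cmpk2 and Pml). Both lists come from the same libraries.

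**Figure D4:**
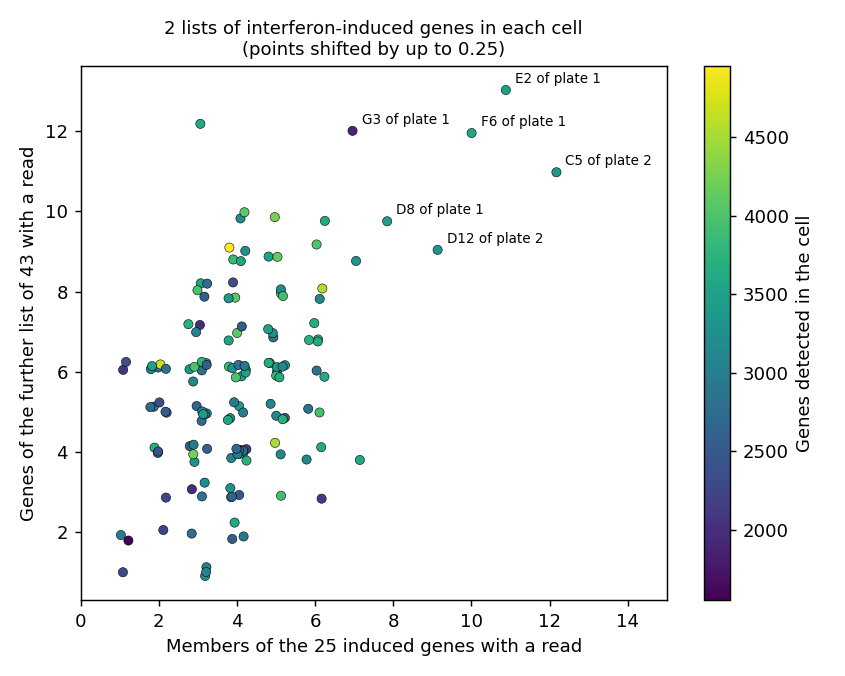
Number of the 25 induced members with a read (horizontal axis) against the number of genes of a further list of 43 with a read (vertical axis) in each of the 143 cells, coloured by genes detected. Wells E2, F6 and C5 lie at the upper right with 13, 12 and 11 genes of the further list, and their colours lie in the middle of the range.

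Other genes of the pathway were listed by role. A share of 50% of cells or more was reached by 17.2% of all genes with a read. None of the 10 ligand genes in the table (Ifnb1, Ifng, Ifnk, Ifne, Ifna1, Ifna2, Ifna4, Ifna5, Il28a and Il28b) had a read in any cell. Of 11 further receptor and signalling genes, 4 reached 50% of cells: Ptpn6, the phosphatase SHP-1 that damps cytokine signalling, in 93.01%, Il10rb in 86.01%, Pias1 in 53.8% and Stat3 in 53.1%. The feedback inhibitors Socs1 and Socs3 were read in 3 and 2 cells. A list of sensing genes and Irf transcription factors held 11 genes, of which 4 reached 50% of cells. These were the sensor Tlr7 in 67.8% and the transcription factors Irf8 in 89.5%, Irf5 in 55.9% and Irf2 in 53.1%. The adaptors Tmem173 (STING) and Mavs were read in 35.7% and 25.2%.

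Of the 43 further induced genes, 3 reached 50% of cells, where 17.2% of all genes with a read did. These 3 were Lgals9, a galectin, in 80.4%, Lgals3bp in 76.2% and Ube2l6, the conjugating enzyme for Isg15, in 67.8%. The median over the 43 was 6.29% of cells, with 9 genes without a read included. The median of 16.1% over all genes given above leaves such genes out. Cxcl10, Cxcl9, Ccl5, Gbp5, Iigp1 and Oas3 were among the 9 without a read. Class I antigen presentation, which interferon raises from a constant base, was read far more widely, with 7 of 12 genes in at least 50% of cells: B2m in 100%, H2-D1 in 97.2%, Tapbp in 89.5%, the immunoproteasome subunit Psmb8 in 88.1%, H2-K1 in 81.1%, H2-T23 in 58.7% and Psmb10 in 53.1%. Nlrc5, the factor that drives class I genes, was read in 3 cells.

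The plates, technical batches of the same pool, were compared as pooled levels with a pseudocount of 1 CPM. Of the 32 members with a pooled level of at least 1 CPM, 2 were at least 2-fold higher on plate 2 (Rsad2 and Oasl2) and 7 at least 2-fold lower (Irf1, Ifit1, Ifit3, Usp18, Oas1a, Ifi35 and Ddx58), against 7.21% and 14.5% of 10875 genes. With a pseudocount of 10 CPM, 1 in place of 9 members passed, Rsad2. The median log2 ratio of plate 2 over plate 1 was 0.0017 over the 10 signalling genes and -0.44 over the 22 induced genes, where it was -0.09 over all 10875 genes. Most of the 9 members past 2-fold were read in few cells: Ifit1, Ifit3, Usp18, Rsad2 and Oasl2 in at most 3. Ifi35 is the most widely read of them, in 36 of 95 cells on plate 1 and 12 of 48 on plate 2, with pooled levels of 67.5 and 30.5 CPM. Of the receptor chains, Ifnar1 was at 200 CPM on plate 1 and 201 CPM on plate 2, and Ifngr1 at 620 and 632 CPM. Ifngr2 was lower on plate 2, at 313 and 226 CPM, and Ifnar2 higher, at 91.4 and 108.9 CPM.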

How the data were processed

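The deposited values are read counts, not normalized, for 23337 genes and 92 spike-ins in each cell. Per the submitters' processing notes, HTSeq, Picard, STAR (2.5.3a) and Trim Galore (0.4.3) were used with build mm10; annotation and strand setting are not given in the sources used here. Column sums, spike-ins included, matched the total in the labels in 143 of 143 cells, and no 2 cells were identical. CPM were computed here as counts per 1000000 gene counts of a cell, spike-ins left out and the ribosomal RNA precursor Rn45s kept; pooled CPM sums counts over cells first. A gene counts as read in a cell with at least 1 count. Shares have exact Clopper-Pearson 95% intervals; a share of 0 of 143 allows 3 cells, or 2.098%. All cells were kept; per the labels each was sorted singly, so no doublet caller was run. Symbols are those of the table; gene positions and exon lengths are from GENCODE vM21 (GRCm38), promoters from RefSeq. Python 3.11.15, scipy 1.17.1 and edgeR 4.0.16 (TMMwsp scaling, as an alternative) were used. The share function was tested on simulated counts for 23337 genes and recovered the set share for 200 of 200 changed genes. Changed genes were set far above 1 read in chosen cells and to 0 elsewhere. The test thus checks the calculation only, not how often RNA present in a cell is read. Members and lists were chosen with earlier results of these data known. All members are accounted for; values are given in full for members read in at least 20% of cells and core genes read in at least 3. Other pathway genes are named where read in at least 50% of cells or leading their group; further names were chosen after their values were seen. Results for some genes are not reported here.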

Additional observations from a re-analysis of the deposited data

How the results depend on the processing

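The median share of the signalling list ran from 40.9% to 43.8% with at least 2 or 5 reads, on each plate, without well G3 of plate 1 or with cells thinned to 400000 gene counts (2 cells of plate 1 left out). It was 76.6% with the 4 transcription factors moved to the induced list, because 6 genes then remain. The median share of the induced list ran from 8.33% to 11.3% over 8 alternatives, and that of cells with a core gene from 31.2% to 38.9% over 7. The median number of induced genes per cell was 4 in 9 of 10 alternatives and 2 without Bst2, Ifitm2 and Ifitm3. Cells with at least 8 numbered 3 without these genes, 4 with at least 2 or 5 reads and 9 with the transcription factors added. The summed level moved with the scale: for the signalling list 1623 CPM without Rn45s, 1450 without G3 (the highest cell), 1463 with edgeR TMMwsp scaling, 1515 with spike-in scaling, 1464 as a mean over cells, and 1491 and 1432 on plates 1 and 2; for the induced list 644 without Rn45s, 567 without G3, 623 with spike-ins, and 615 and 518 on the plates. Members past 2-fold between plates numbered 11 with a pseudocount of 0.1, 10 without a filter and 1 with a pseudocount of 10; the cause was not tested. Leaving out G3 and the mean over cells were chosen after the data were seen. No paired analysis was possible because there is 1 group. A gene read in few cells can be missed in others, and the depth per molecule is unknown.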

Other observations

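Well B12 of plate 1 had the most signalling genes, 8 of 10, with the highest Irf7 (175 CPM) and the second highest Stat2 (340 CPM), but 5 of the 25 induced genes. Well F6 of plate 1 had 7 signalling genes and no read of Tyk2, Stat2 or Irf9, and well E2 of plate 1 had 4.

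Ifi27l1, a relative of Ifi27l2a, was read in 62 cells (43.4%), Ifi27l2a in 29 and Ifi27l2b in 0. Oas1g was read in 3 cells, Oas1b and Oas1c in 2 each, and Oas1a in 26.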
